A study of Mus musculus with 8 samples.

Results

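The genes described are the Fos, Jun and Batf subunits of the transcription factor AP-1 (activator protein 1), in mouse articular chondrocytes made to overexpress the zinc transporter ZIP8. They were chosen by name as a list of 9 genes: Fos, Fosb, Fosl1, Fosl2, Jun, Junb, Jund, Batf and Batf3. Of these, 8 had a probe set with 1 gene symbol among the 22180 genes tested. Fosl1 appears in the platform annotation only on a probe set that also carries the symbol Ccdc85b, so it was not analysed here. The cells were primary chondrocytes from the knee cartilage of wild-type ICR mice 5 days old, grown as a monolayer with fetal bovine serum. The control group (Ad-null, 4 arrays) received an adenovirus without the transporter, and the other group (Ad-Zip8, 4 arrays) received an adenovirus that expresses ZIP8, so both groups had been exposed to adenovirus. Total RNA was taken 24 h after infection. The labels call the arrays biological replicates without naming the animals or pools behind each culture, so the p-values speak only of the spread among these arrays, which may be technical.

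AP-1 is a pair of proteins joined through a leucine zipper. Jun proteins can pair with one another or with a Fos or Batf protein, whereas Fos proteins need a Jun partner to bind DNA. Many subunit genes are early response genes, which are switched on quickly by cytokines, growth factors and stress through MAP kinases. In cartilage, AP-1 is known for acting at the promoters of collagenase and stromelysin genes.

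The expression values are log2 values per probe set made by the robust multi-array average method (RMA), so 1 unit is a doubling. A gene is said to have risen or fallen where its adjusted p from a limma fit, corrected over all 22180 genes, was under 0.05. Slc39a8, the gene that encodes ZIP8, checked the labels: its Ad-null values lay between 6.12 and 6.27 and its Ad-Zip8 values between 10.90 and 11.24. The correlation between arrays was 0.991 to 0.993 inside the groups and 0.979 to 0.986 across them. Chondrocyte markers were bright in both groups, with Col2a1, which encodes collagen II, at 13.46 ± 0.02 and 13.24 ± 0.09 (SD, n = 4 each).

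Of the 8 measured subunit genes, 5 rose with ZIP8, 3 did not pass the test and 0 fell (limma; 0 also at an unadjusted p under 0.05 in the lower direction). Batf rose the most, by 2.93-fold, followed by Junb (2.24-fold), Fosl2 (1.88-fold), Fos (1.81-fold) and Fosb (1.46-fold). Jun, Jund and Batf3 did not pass. Over all genes tested, 10.6% passed the test, with 5.48% higher and 5.12% lower. The Ad-Zip8 and Ad-null values of the 5 genes that rose did not overlap, and 7.89% of all genes lay apart in that direction. The median log2 change of the 8 subunit genes was 0.70, against -0.02 over all genes. The change of Batf was larger than that of 99.6% of all genes, and the change of Jund was larger than that of 32.4%.

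Upstream sequences are shown for Batf, Junb, Fosl2 and Jun, because they belong to the 3 subunit genes with the smallest adjusted p and to Jun, the subunit gene that did not pass beside them. They are the 250 bases before the transcription start in RefSeq (build GRCm38.p6): chr12:85686470-85686719 on the plus strand for Batf, chr8:84978749-84978998 on the minus strand for Junb, chr5:32136222-32136471 on the plus strand for Fosl2 and chr4:95052223-95052472 on the minus strand for Jun. Each is written 5′ to 3′ toward its gene, and capitals mark letters that match one of the motifs searched.
Batf: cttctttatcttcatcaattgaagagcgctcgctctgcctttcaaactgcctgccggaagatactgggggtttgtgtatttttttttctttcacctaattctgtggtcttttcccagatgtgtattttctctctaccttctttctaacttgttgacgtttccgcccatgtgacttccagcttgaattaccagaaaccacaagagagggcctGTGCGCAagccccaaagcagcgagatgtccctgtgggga
Junb: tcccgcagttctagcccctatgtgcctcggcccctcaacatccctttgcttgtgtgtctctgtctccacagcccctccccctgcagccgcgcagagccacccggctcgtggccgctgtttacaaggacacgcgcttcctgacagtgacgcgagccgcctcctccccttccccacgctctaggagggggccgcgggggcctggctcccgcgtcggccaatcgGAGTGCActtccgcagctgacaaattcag
Fosl2: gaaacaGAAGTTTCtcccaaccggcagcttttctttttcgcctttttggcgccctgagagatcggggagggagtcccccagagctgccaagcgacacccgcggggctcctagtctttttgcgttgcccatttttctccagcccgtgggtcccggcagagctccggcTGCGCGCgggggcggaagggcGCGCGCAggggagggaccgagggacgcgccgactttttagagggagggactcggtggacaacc
Jun: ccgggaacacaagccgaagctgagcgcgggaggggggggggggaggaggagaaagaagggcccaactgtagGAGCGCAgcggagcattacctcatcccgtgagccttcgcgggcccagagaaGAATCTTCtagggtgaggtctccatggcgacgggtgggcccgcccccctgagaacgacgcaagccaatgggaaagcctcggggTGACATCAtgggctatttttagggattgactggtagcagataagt

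Each motif was searched on both strands, in the same 250 bases of 32851 promoter entries of the table, some of which are alternative starts of 1 gene. The 8 measured subunit genes had 1 entry each. The core of the metal response element, bound by the zinc-sensing factor Mtf1, was searched in a G form, TGCGCNC, held by 12.5% of all entries, and an A form, TGCACNC, held by 10.4%. Fosl2 held the G form at 84 to 78 and at 63 to 57 bases before the start, Batf at 39 to 33 and Jun at 179 to 173, and Junb held the A form at 29 to 23. The Jun promoter also held the 8-base AP-1 variant TGACATCA, at 45 to 38 bases before the start, found in 2.93% of all entries. The heat shock element pair GAANNTTC (6.69% of entries) lay in Fosl2 and in Jun, and the Stat motif TTCNNNGAA (7.02%) lay in Batf3. None of the 8 windows held the AP-1 element TGANTCA (6.75% of entries), the cAMP response element TGACGTCA (1.55%) or the form of the serum response element that was searched (1.38%), and the windows of Fos, Fosb and Jund held none of the motifs. Both forms of the metal response core are short, and Jun, which did not pass the test, held one as well. A match is a description of letters in these windows and not a site of binding.

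**Figure D1:**
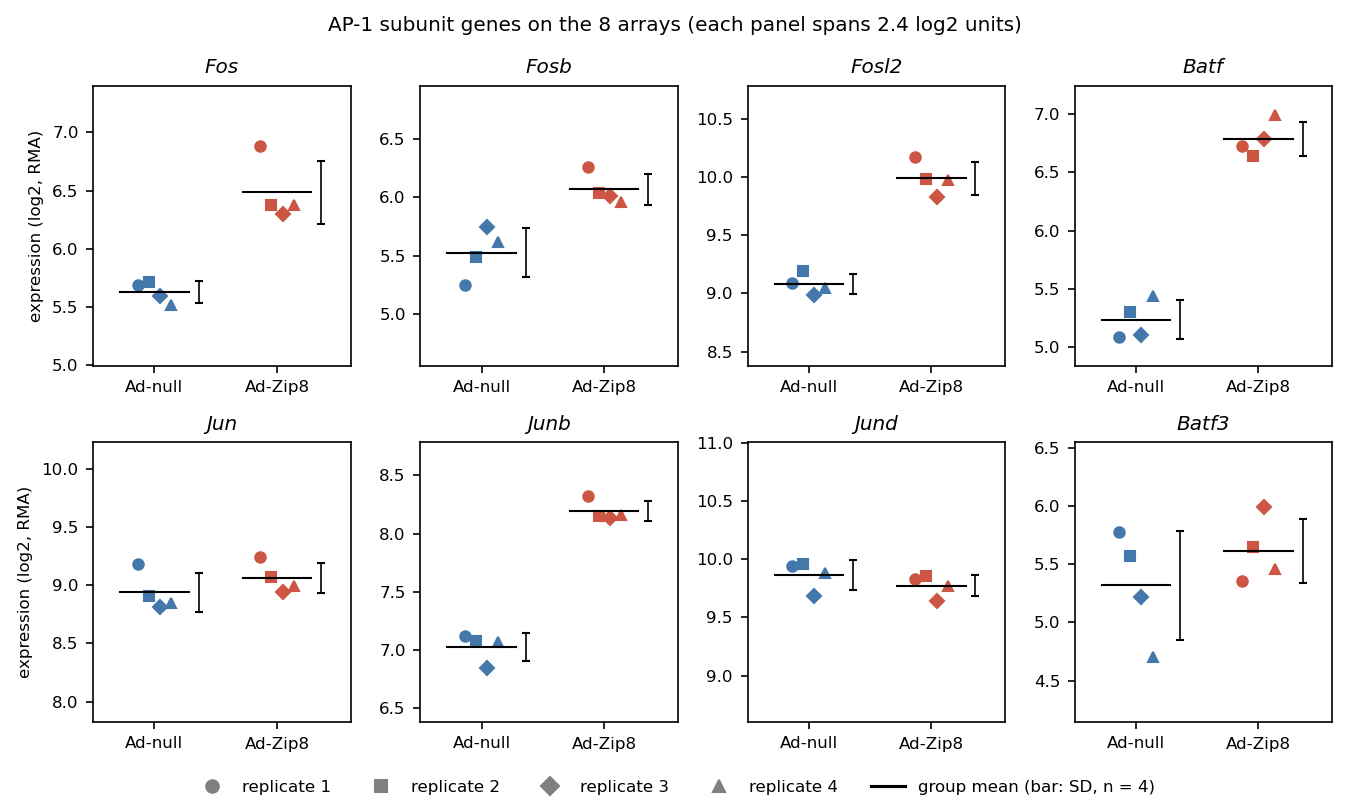
Expression of the 8 measured AP-1 subunit genes on each array, as log2 RMA values, with Ad-null in blue and Ad-Zip8 in red; marker shapes give the replicate number, horizontal lines the group means and bars the SD (n = 4). The groups do not overlap for Fos, Fosb, Fosl2, Batf and Junb, and they overlap for Jun, Jund and Batf3.

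Among the Fos genes, Fosl2, which encodes Fra-2, had the smallest adjusted p. Its log2 values were 9.09, 9.19, 8.99 and 9.05 in Ad-null replicates 1 to 4 and 10.17, 9.98, 9.82 and 9.97 in Ad-Zip8 replicates 1 to 4. Each Ad-Zip8 array lay above each Ad-null array. The log2 change was 0.91 (SE 0.09, limma adjusted p = 0.000155). Fos, which encodes c-Fos, the founding member of the group, had log2 values of 5.69, 5.72, 5.59 and 5.51 with Ad-null and 6.88, 6.38, 6.30 and 6.37 with Ad-Zip8. Replicate 1 stood above the other Ad-Zip8 arrays, and all 4 lay above the Ad-null arrays. The log2 change of Fos was 0.85 (SE 0.13, limma adjusted p = 0.00189), and it was 0.72 without Ad-Zip8 replicate 1. Fosb, which encodes a further c-Fos relative, had log2 values of 5.25, 5.49, 5.74 and 5.61 with Ad-null and 6.26, 6.04, 6.02 and 5.96 with Ad-Zip8. Its groups came closest to each other among the genes that rose, with the highest Ad-null array at 5.74 and the lowest Ad-Zip8 array at 5.96. The log2 change of Fosb was 0.54 (SE 0.11, limma adjusted p = 0.0137). Fos and Fosb had Ad-null means not far above the array medians, which lay between 5.04 and 5.11 over all probe sets. Those means, 5.63 and 5.52, lay below the median level of all genes tested, 5.64. Background compresses differences at that end of the scale.

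The 3 Jun genes did not move together. Junb, whose product is a weaker activator than c-Jun at many AP-1 sites, had log2 values of 7.12, 7.08, 6.85 and 7.07 with Ad-null and 8.32, 8.15, 8.13 and 8.16 with Ad-Zip8. The gap between the groups far exceeded the spread within either one: the means were 7.03 ± 0.12 and 8.19 ± 0.09 (SD, n = 4 each). The log2 change was 1.16 (SE 0.08, limma adjusted p = 2.76e-05). Jun, which encodes c-Jun, had log2 values of 9.18, 8.91, 8.81 and 8.85 with Ad-null and 9.24, 9.07, 8.94 and 8.99 with Ad-Zip8. Replicate 1 was the highest array and replicate 3 the lowest in both groups, and the groups overlapped. The log2 change of Jun was 0.12 with a 95% interval of -0.10 to 0.35 (limma adjusted p = 0.541). Jund, whose gene is usually expressed without a stimulus, had log2 values of 9.94, 9.96, 9.68 and 9.88 with Ad-null and 9.83, 9.85, 9.64 and 9.77 with Ad-Zip8. These also overlapped, and the log2 change was -0.09 with a 95% interval of -0.28 to 0.10 (limma adjusted p = 0.594). A second, dimmer probe set of Jund went from 6.99 ± 0.10 to 6.86 ± 0.07 (SD, n = 4 each) and did not pass either (limma adjusted p = 0.522 over all probe sets). The intervals of Jun and Jund end below a log2 change of 0.36, so they leave out changes of the size seen for Junb.

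Batf and Batf3 encode small AP-1 proteins that pair with Jun proteins and lack the activation domains of Fos. They are best known from lymphocytes and dendritic cells. Batf had log2 values of 5.09, 5.30, 5.11 and 5.44 with Ad-null and 6.72, 6.64, 6.79 and 6.99 with Ad-Zip8. All Ad-Zip8 arrays were more than 1 log2 unit above the highest Ad-null array. The log2 change was 1.55 (SE 0.11, limma adjusted p = 2.02e-05). The Ad-null mean of Batf was 5.23 ± 0.17 (SD, n = 4). It lay near the array medians and below the median level of all genes tested, 5.64, so the size of the change is uncertain at its lower end. Batf3 was scattered, at 5.78, 5.57, 5.22 and 4.70 with Ad-null and 5.36, 5.65, 5.99 and 5.46 with Ad-Zip8. Its lowest and highest Ad-null arrays lay more than 1 log2 unit apart, the groups overlapped, and the log2 change was 0.29 with a 95% interval of -0.20 to 0.79 (limma adjusted p = 0.501). That interval is wide enough to hold a change as large as that of Fosb.

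**Figure D2:**
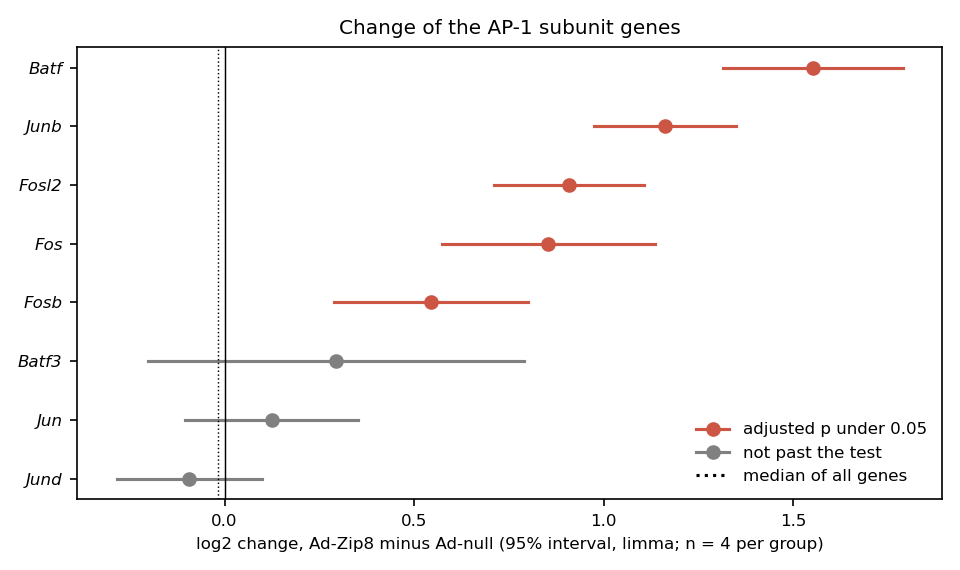
Log2 change of each measured AP-1 subunit gene, Ad-Zip8 minus Ad-null, with its 95% interval from the limma fit (n = 4 per group); the dotted line is the median of all genes tested. The 5 genes in red run from Fosb at 0.54 to Batf at 1.55, and the intervals of Batf3, Jun and Jund cross 0.

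Markers of other cell types were set beside Batf, since these arrays measured bulk RNA, in which fewer cells of a type and less RNA per cell cannot be told apart. Over all genes tested, 5.48% rose and 5.12% fell. Of 13 measured markers of lymphocytes and dendritic cells, 0 passed the limma test in either direction (1 at an unadjusted p under 0.05), with log2 changes from -0.19 to 0.28. The mean log2 level over those 13 genes was 4.47 to 4.57 on the Ad-null arrays and 4.47 to 4.65 on the Ad-Zip8 arrays, and 12 of the 13 lay below the median of all genes. The T cell receptor genes Cd3e, Cd3d and Cd3g had log2 changes of -0.19, 0.10 and 0.07. Of 14 macrophage markers, 2 rose (Cd14 by 1.39 and Cd68 by 0.83 on the log2 scale), 1 fell (Laptm5, log2 change -0.72) and 11 missed the threshold, with a mean level over the list of 4.95 to 5.09 with Ad-null and 5.04 to 5.13 with Ad-Zip8. Adgre1, Csf1r and Ptprc, which define macrophages or leukocytes, had log2 changes of 0.10, -0.09 and -0.17. Of 9 endothelial markers, 0 passed (0 also at an unadjusted p under 0.05), and of 8 osteoclast markers Mmp9 alone passed, a gene that is also in the AP-1 target list. At an unadjusted p under 0.05, 3 of those 8 were higher and 0 lower, and the same 3 genes had groups that did not overlap: Mmp9, Atp6v0d2 (log2 change 0.43, limma adjusted p = 0.0682) and Calcr (0.34, limma adjusted p = 0.0915). Over all genes, 2282 of 22180 were higher at an unadjusted p under 0.05, and 7.89% lay apart in that direction. Of the 8 osteoclast markers, 6 lay below the median of all genes, with Ad-null means of 3.24 for Atp6v0d2 and 4.25 for Calcr. The mean level over the osteoclast list was 4.91 to 5.10 with Ad-null and 5.33 to 5.43 with Ad-Zip8. That mean includes Mmp9, with a log2 change of 2.20. In the fibroblast and synovial list 4 of 10 rose and 2 fell. Those higher were Prg4 (3.58-fold), S100a4 (2.13-fold), Pdpn (1.84-fold) and Pdgfra (1.81-fold). Those lower were Cd55 (1.83-fold, limma adjusted p = 0.0304) and the collagen I gene Col1a2 (1.31-fold, limma adjusted p = 0.0218). Dpt did not pass, with a log2 change of -0.93 (limma adjusted p = 0.139), but it passed as lower with the replicate block (adjusted p = 0.0142) and without Ad-null replicate 3 (adjusted p = 0.0189). Cd55, Dpt, Atp6v0d2 and Calcr were chosen after their values were seen. The call of Cd55 was lost when replicate 1, 2 or 3 of the Ad-null arrays, or replicate 4 of the Ad-Zip8 arrays, was left out (adjusted p from 0.0590 to 0.0824). The count of 2 lower was 0 without Ad-null replicate 1 or 2, and 1 without Ad-null replicate 4, without Ad-Zip8 replicate 2, 3 or 4, after repeated quantile normalization and with dim genes left out. The mean level over that list was 7.58 to 7.99 with Ad-null and 7.89 to 8.32 with Ad-Zip8. Chondrocyte markers fell in 11 of 13 cases, while Col2a1 and Sox9 passed as lower only with a variance trend (adjusted p = 0.00587 and 0.0207) or with dim genes left out (adjusted p = 0.0206 and 0.0431). At an unadjusted limma p under 0.05 all 13 were lower, and the groups of all 13 did not overlap. Over all 22180 genes, 2745 were lower at that p and 2160 lay apart in that direction. The count of lower chondrocyte markers was 8 to 11 with 1 array left out and 10 to 13 under the other settings. The list's mean level was 11.94 to 12.04 with Ad-null and 11.25 to 11.54 with Ad-Zip8. The part of these shifts in the change of the AP-1 genes was not tested.

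Whether subunits of 1 subfamily changed unequally was tested on the difference between their log2 values within each array, for 7 pairs. Such a difference shows unequal change and says nothing of which gene is more abundant. The smallest p that the exact permutation test over 4 against 4 arrays can give is 0.0286, and adjusted over 7 pairs it could pass 0.05 only if 5 or more pairs reached it. Junb minus Jund was -2.82, -2.88, -2.83 and -2.81 on the Ad-null arrays and -1.51, -1.70, -1.51 and -1.61 on the Ad-Zip8 arrays. The Ad-null values lay within 0.1 of each other, and the groups were far apart. The change of Junb exceeded that of Jund by 1.26 (exact permutation p = 0.0286, two-sided, adjusted 0.0667). Jun minus Junb was 2.06, 1.83, 1.96 and 1.78 with Ad-null and 0.92, 0.92, 0.81 and 0.83 with Ad-Zip8. The groups again did not overlap, and the change of Jun was below that of Junb by 1.04 (exact permutation p = 0.0286, adjusted 0.0667). For Jun and Jund the difference of changes was 0.22 (exact permutation p = 0.0857, adjusted 0.120), and the groups overlapped. Taken between arrays of the same number, it was 0.17, 0.27, 0.17 and 0.26, above 0 in 4 of 4 pairs.

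For the 3 measured Fos genes the groups overlapped in each pair. The change of Fos differed from that of Fosl2 by -0.05 (exact permutation p = 0.486, adjusted 0.486), the change of Fos from that of Fosb by 0.31 (exact permutation p = 0.143, adjusted 0.167), and the change of Fosb from that of Fosl2 by -0.36 (exact permutation p = 0.0571, adjusted 0.100). Between arrays of the same number, Fos minus Fosb was above 0 in 4 of 4 pairs (0.12 to 0.52), Fosb minus Fosl2 was below 0 in 4 of 4 (-0.58 to -0.07), and Fos minus Fosl2 was above 0 in 1 and below 0 in 3. A sign-flip test over 4 pairs cannot give a p below 0.125, which it gave for Jun minus Jund, Fos minus Fosb and Fosb minus Fosl2. Without Ad-null replicate 1, Fos minus Fosb (0.42), Fosb minus Fosl2 (-0.46) and Jun minus Jund (0.27) passed, as did the 3 pairs whose groups lay apart on all arrays (exact permutation adjusted p = 0.0333 for each). No pair passed the exact test when any other array was left out. The change of Batf exceeded that of Batf3 by 1.26 (exact permutation p = 0.0286, adjusted 0.0667), with the within-array differences spread more widely, at SDs of 0.60 with Ad-null and 0.34 with Ad-Zip8 (n = 4 each). A limma fit of each difference over all genes, added after the data had been seen, does not have the lower limit of the exact test. For it, each member of a pair in turn was subtracted from every gene, and the larger adjusted p was kept. All differences in a fit share the scatter and the change of the subtracted member, so the adjustment can be lenient. Its SE draws on variance shared over genes. That SE was 0.19 for both Fos against Fosb and Fos against Fosl2, against 0.16 and 0.08 from their own arrays. The fit passed Jun against Junb (adjusted p = 4.09e-05, 95% interval -1.30 to -0.77), Junb against Jund (adjusted p = 5.04e-06, 1.05 to 1.46) and Batf against Batf3 (adjusted p = 0.00405, 0.66 to 1.85). It did not pass Jun against Jund (adjusted p = 0.355, -0.05 to 0.49), Fos against Fosb (adjusted p = 0.113, -0.07 to 0.69), Fos against Fosl2 (adjusted p = 0.784, -0.43 to 0.33) or Fosb against Fosl2 (adjusted p = 0.0573, -0.73 to -0.001).

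**Figure D3:**
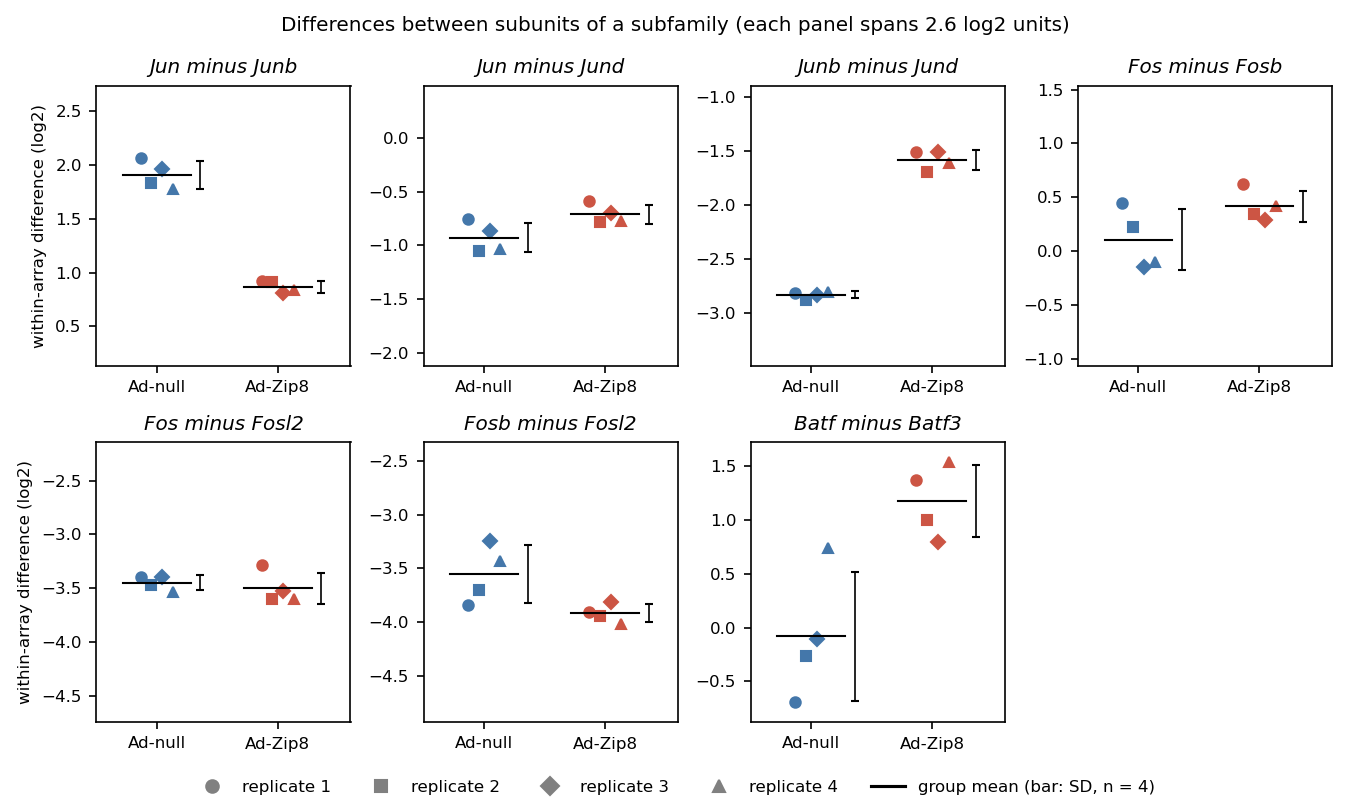
Within-array differences in log2 expression between subunits of 1 subfamily, for 7 pairs, with Ad-null in blue and Ad-Zip8 in red; shapes give the replicate number, lines the group means and bars the SD (n = 4). The groups do not overlap for Jun minus Junb, Junb minus Jund and Batf minus Batf3, and they overlap for the other pairs.

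The subunit genes also shared part of their scatter within groups, though not they alone. Replicate 1 was the highest of the Ad-Zip8 arrays for Fos, Fosb, Fosl2, Jun and Junb, and replicate 3 was the lowest for Fos, Fosl2, Jun, Junb and Jund. In the Ad-null group replicate 3 was also the lowest array for Fosl2, Jun, Junb and Jund. Genes outside the family did likewise: S100a4 (7.85), Prg4 (9.41) and Cd14 (7.18) were highest on Ad-Zip8 replicate 1. Acan (12.42) and Matn3 (9.85) were lowest on that array, and Thy1 was highest on replicate 4 (6.43). As S100a4, Prg4 and Cd14 show, a peak on Ad-Zip8 replicate 1 is not confined to the subunits. The share of all genes with such a pattern was not counted. Set against the Ad-null array of the same number, the difference ran from 1.07 to 1.28 for Junb, from 1.34 to 1.68 for Batf, from 0.79 to 1.08 for Fosl2, from 0.66 to 1.19 for Fos and from 0.27 to 1.02 for Fosb. Each of these was above 0 in 4 of 4 pairs, which follows from groups that do not overlap and adds nothing to it. Jun was also above 0 in 4 of 4 pairs, by 0.06 to 0.16, with an adjusted p of 0.284 in the blocked limma fit. For Jund all 4 differences were below 0, from -0.11 to -0.04, and for Batf3 they went from -0.42 to 0.77.

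Beyond the subunits themselves, 5 lists of related genes were counted. These lists were written with earlier results of the data known, so their counts describe and do not add independent evidence. Of 11 other basic leucine zipper genes whose products can pair with Fos or Jun, 9 did not pass, 1 rose and 1 fell, and the median log2 change was 0.09. In this list 18.2% passed in either direction, against 10.6% over all genes tested. Jdp2, which encodes a Jun partner that represses AP-1, fell 1.28-fold (log2 change -0.36, SE 0.08, limma adjusted p = 0.0230). Its call was lost when replicate 1, 2 or 4 of the Ad-null arrays, or replicate 1 or 3 of the Ad-Zip8 arrays, was left out (adjusted p from 0.0577 to 0.0677). Maf rose 1.19-fold (adjusted p = 0.0397), but not with the replicate number as a block (adjusted p = 0.0588), after median centring of the arrays (adjusted p = 0.0549) or without any 1 of the 8 arrays (adjusted p from 0.0534 to 0.109). The stress-induced gene Atf3 did not pass and had a log2 change of -0.29 (SE 0.10, limma adjusted p = 0.109), opposite in sign to those of Fos and Junb. Atf3 passed as lower with a variance trend (adjusted p = 0.0400) and with dim genes left out (adjusted p = 0.0418). Atf2 and Atf7 had log2 changes of 0.14 and -0.10.

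Among 26 genes of the kinase cascades that activate AP-1, 24 did not pass, 2 rose and 0 fell (limma), and the median log2 change was -0.02. The share that passed was 7.69%, against 10.6% over all genes tested. At an unadjusted p under 0.05, 5 were higher and 2 lower, against 2282 and 2745 of all 22180 genes. Map3k8, which encodes the kinase Tpl2 that links inflammatory receptors to ERK, rose 2.33-fold. Its log2 values were between 5.56 and 5.87 with Ad-null and between 6.82 and 7.07 with Ad-Zip8, a change of 1.22 (SE 0.10, limma adjusted p = 5.25e-05). All Ad-Zip8 arrays lay above all Ad-null arrays. Map2k1, the gene of MEK1, rose 1.21-fold (adjusted p = 0.0406), but not with the replicate block (adjusted p = 0.0792), after median centring of the arrays (adjusted p = 0.0604) or without any 1 array other than Ad-null replicate 1 (adjusted p from 0.0669 to 0.0970). The JNK genes Mapk8 and Mapk9 had log2 changes of 0.14 and -0.13, and Mapk7 had -0.08. With a variance trend 2 kinase genes were lower, and 1 was lower when dim genes, Ad-null replicate 1 or Ad-Zip8 replicate 4 were left out.

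Of 11 transcription factor genes that act on Fos and Jun promoters, 2 rose, 1 fell and 8 did not pass. That is 27.3% passing, against 10.6% over all genes tested. Elk3, which encodes a partner of the serum response factor, rose 1.37-fold (log2 change 0.46, SE 0.07, limma adjusted p = 0.00211). Stat3, whose product acts downstream of IL-6 family cytokines, rose 1.23-fold (adjusted p = 0.0308). Its call was lost when replicate 2, 3 or 4 of the Ad-null arrays, or replicate 1, 2 or 4 of the Ad-Zip8 arrays, was left out (adjusted p from 0.0562 to 0.0895). Mrtfb, a coactivator gene, fell 1.22-fold (adjusted p = 0.0345), but not with the replicate block (adjusted p = 0.0501), either rescaling (adjusted p = 0.0509 and 0.0552), the mean of probe sets (adjusted p = 0.0845) or without any 1 array other than Ad-Zip8 replicate 2 (adjusted p from 0.0607 to 0.0986). Srf, Elk1 and Elk4 had log2 changes of -0.09, 0.01 and 0.05. Of 10 genes for the turnover and restraint of AP-1, 3 rose, 1 fell and 6 did not pass, so 40% passed. The RNA decay genes Zfp36l1 and Zfp36l2, whose products bind AU-rich messages, rose by 0.88 (SE 0.11, limma adjusted p = 0.000752) and 0.62 (SE 0.10, limma adjusted p = 0.00294) on the log2 scale. The pseudokinase gene Trib1, whose product guides a ubiquitin ligase, rose 1.36-fold (adjusted p = 0.0101). Itch, a Jun ubiquitin ligase gene, fell 1.20-fold (adjusted p = 0.0356), but not with the replicate block (adjusted p = 0.0638), either rescaling (adjusted p = 0.0618 and 0.0683) or without any 1 array (adjusted p from 0.0549 to 0.100). Fbxw7, Cop1 and Det1 had log2 changes of -0.01, -0.16 and -0.06.

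**Figure D4:**
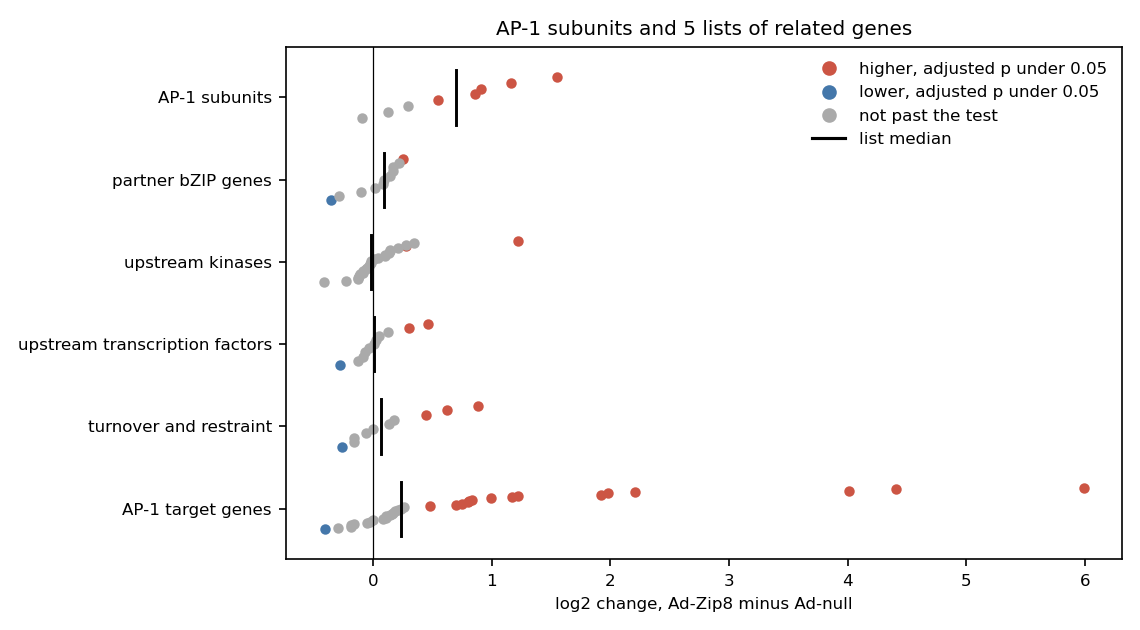
Log2 change of each measured gene in the AP-1 subunit list and in 5 lists of related genes, Ad-Zip8 minus Ad-null; red and blue points passed the limma test, grey points did not, and black bars are list medians. The subunit median of 0.70 lies above the medians of the other lists, which run from -0.02 to 0.23.

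Of 33 measured genes listed as AP-1 targets, 17 did not pass, 15 rose and 1 fell, and the median log2 change was 0.23. In this list, which was written with earlier results known, 48.5% passed, against 10.6% over all genes tested. Whether each of them carries an AP-1 element, or answers to AP-1 in these cells, was not tested. The genes with the smallest adjusted p were Mmp3, the stromelysin 1 gene (log2 change 5.99, SE 0.27), Mmp13, the collagenase 3 gene (4.41, SE 0.24), the chemokine gene Ccl2 (4.01, SE 0.22), Mmp12 (1.98, SE 0.15) and Mmp9 (2.20, SE 0.19), all with a limma adjusted p of 8.05e-05 or lower. Their groups did not overlap. Mmp3, Mmp13, Ccl2 and Mmp12 were highest on Ad-Zip8 replicate 1, as Fos and Junb were, and Mmp9 was not. Genes outside the list, such as S100a4 and Cd14, were highest on that array too. The interstitial collagenase genes Mmp1a and Mmp1b had log2 changes of -0.005 and -0.16 and group means below 2.5, under the array medians. Plau, the urokinase gene, had a log2 change of 0.15 (limma adjusted p = 0.458). The gene that fell was Csf1 (log2 change -0.40, limma adjusted p = 0.00279), which the naming rule did not pick and which was chosen with its value known. With a variance trend or with dim genes left out, 3 genes of the list were lower.

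The genes whose profiles lay nearest to those of Batf and Junb, the 2 subunit genes with the smallest adjusted p, were found by the Euclidean distance between log2 values over the 8 arrays, each gene centred on its own mean. Predicted genes, clones, microRNA and small RNA genes were left out by a pattern of symbols. That pattern also drops some named genes, such as those whose symbols begin with Rn. Nearest to Batf were Minar1, Tlr2, Sostdc1, Spidr and Tgfbr3, at distances of 0.43 to 0.48 and with log2 changes of 1.41 to 1.58. Nearest to Junb were Tk1, Macrod1, Kif2c, Prss23 and Smim3, at distances of 0.19 to 0.21 and with log2 changes of 1.13 to 1.24. The distance mostly reflects a like difference between the groups, so these genes are a description of like profiles on these arrays.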

How the data were processed

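Sense cDNA made from total RNA was fragmented and tagged with biotin by a whole-transcript kit, per the labels. The authors deposited log2 values, 1 for each probe set and array. The submitters' processing notes name RMA; its version and the genome build were not given in the sources used here. The platform annotation gave 1 symbol for 23521 of 41345 probe sets, several for 1814 and no entry for 16010. For genes with several, the probe set with the highest mean was kept. The groups were compared with limma 3.58.1 in R 4.3.3 (two-sided, no covariates, no filter), with Benjamini-Hochberg adjustment over 22180 genes. The fit was tested on simulated data. No detection calls were used, and the number of arrays limits the precision. The members and lists were chosen with earlier results of these data known. Named are all members, in each list up to 5 called genes with the smallest adjusted p and the first 3 that did not pass, and the nearest profiles. Replicate numbers 1 to 4 are shared by the groups. Deviations from group means correlated at 0.11 to 0.37 between same-numbered arrays and at -0.27 to 0.16 between others, so an alternative fit treats the number as a pairing, which is inferred from the data. Other alternatives were a variance trend, 2 rescalings, leaving out dim genes, the mean of probe sets and leaving out each array. Promoter sequences are from RefSeq (GRCm38.p6), matched by symbol.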

Additional observations from a re-analysis of the deposited data

Results flagged for a closer look

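Of 160 groups of 4 values examined (80 named genes, 2 groups each), 11 held an array whose gap to its nearest neighbour was above Dixon's 95% critical share of the group's range. Chance gives about 1 in 20. For 3 genes that array was Ad-Zip8 replicate 1 at the top: Fos at 6.88 against 6.38 for the next array, Junb at 8.32 against 8.16, and the target gene Ccl2 at 10.67 against 9.77. Without that array Fos had a log2 change of 0.72 and Junb 1.12, and both passed the limma test. Jdp2 was low on Ad-null replicate 3 (8.50), as were Cd14 (5.12) and Col1a2 (10.24), while Col11a2 was high there (10.93). Col2a1 was high on Ad-null replicate 1 (13.49), and Mapk9 was low on Ad-Zip8 replicate 2 (7.57). Ptprc was low on Ad-null replicate 4 (3.23) and on Ad-Zip8 replicate 1 (2.83).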

How the results depend on the processing

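The same 5 subunit genes rose, and 0 fell, under the replicate block, the variance trend, median centring, repeated quantile normalization, the filter on dim genes, the mean of probe sets and each of the 8 fits with 1 array left out. Batf3 was not in the filtered set. The filter kept genes whose mean over the 8 arrays was above 5.64, the median of all genes. The Ad-null means of Batf (5.23), Fosb (5.52) and Fos (5.63) lay below that value. These genes were kept only through their Ad-Zip8 values, so the filter is no separate check of their calls. Each of the 5 genes that rose has 1 probe set, so the mean of probe sets could not change their values. Fosb came nearest to the threshold, with an adjusted p of up to 0.0484 under these settings. The blocked fit of the replicate pairing kept the calls of the subunit genes (Junb adjusted p = 4.01e-04); calls it ended are given beside the genes. For the pair differences the replicate block was a sign-flip test over 4 pairs, which cannot give a p below 0.125 and so says nothing of their stability. Leaving out 1 array gave differences of -1.08 to -0.99 for Jun minus Junb, 0.18 to 0.27 for Jun minus Jund, 1.23 to 1.29 for Junb minus Jund, 0.22 to 0.42 for Fos minus Fosb, -0.13 to -0.02 for Fos minus Fosl2, -0.46 to -0.26 for Fosb minus Fosl2 and 1.06 to 1.53 for Batf minus Batf3. Without Ad-null replicate 1, where 6 pairs reached the smallest p, those 6, all but Fos minus Fosl2, passed (exact permutation adjusted p = 0.0333). With any other array left out, no pair passed that test. With limma over all genes, chosen after seeing the data and with the limits given beside it, Jun minus Junb (-1.04), Junb minus Jund (1.26) and Batf minus Batf3 (1.26) passed. Signal near background limits the sizes for Batf, Batf3, Fos and Fosb.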
